A study of Mus musculus with 24 samples.

Results

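The 34 genes described here encode structural parts of luminal epithelium, the cell layer that lines the ducts and alveoli of the mammary gland: adhesion molecules, desmosome and tight junction proteins, a membrane protease system, splicing regulators, and proteins of the apical membrane and its traffic. They were taken by gene symbol from the platform annotation, with keratins, claudins and transcription factors left out. No cutoff on a measured value was used to choose them, but earlier results of these data were known when they were chosen. All 34 of the 34 symbols were found on the array and passed the filter on low values, out of 12352 genes tested. Of the 34, 31 lay above the array median, the level the filter used, on some oil array. Prss8, Prom2 and S100a14 did so on progesterone arrays alone and had to be high there to be tested. They are kept apart or named in the counts below. Esrp2 was above the median on 1 of the 12 oil arrays, so it too needed high progesterone arrays to be tested, but it is counted among the 31. Nulliparous BALB/c mice were ovariectomized at 6 weeks of age, left for 2 weeks so that ovarian hormones were cleared, and then injected under the skin each day with 1 mg progesterone in 100 µl sesame oil or with 100 µl of oil alone. Mammary glands were taken 4, 16, 28 or 76 h after the first injection, which gave 8 groups of 3 Affymetrix Mouse Genome 430 2.0 arrays. Each array carried RNA pooled from 5 mice; a group thus came from 15 mice, and its spread is that between pools. All groups, controls included, lacked ovaries, and the 28 and 76 h groups also followed more of the daily injections than the earlier ones, so that for them time and number of injections cannot be told apart.

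Luminal cells are joined by adherens junctions, built on E-cadherin, by desmosomes, which tie the keratin filaments of neighbouring cells together, and by tight junctions, which seal the apical surface and keep its proteins apart from those of the side and base of the cell. Apical proteins reach that surface through epithelium-specific sorting and recycling steps, and a membrane protease system with its own inhibitors acts at the cell surface. Progesterone acts through its receptor in a share of luminal cells, and in the adult mouse it drives side branching and alveolar budding, in which epithelium grows into the fat pad.

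The table held linear intensities for 24 arrays, with array medians between 62.8 and 70.2 and correlations of log2 values between arrays of a group from 0.966 to 0.993. In a model over all 24 arrays (limma, Benjamini-Hochberg adjustment over the 12352 genes, two-sided), 23, 38, 313 and 2195 genes were called at 4, 16, 28 and 76 h at an adjusted p under 0.05. The transcript of the progesterone receptor, Pgr, averaged 464 in oil and 85.5 in progesterone at 4 h, and 279 in both groups at 76 h. The tissue label was checked against its defining markers: on the oil arrays of 76 h the luminal keratin Krt8 had a mean of 796 and the fat cell gene Adipoq a mean of 11270.0. The array number limits the precision of every value, and intensities are not compared between genes.

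At 76 h, 28 of the 34 genes passed the test: 27 were higher in progesterone and 1 was lower. Of all genes tested, 17.8% were called at that time, 11.1% higher and 6.7% lower. Of the 31 genes above the median on some oil array, 24 were called higher, against 10.5% of the 12226 such genes. These 24 rises ran from 0.59 to 2.47 on the log2 scale, 1.51-fold to 5.54-fold, with a median of 1.20. The median difference over the 31 was 0.91, and over all genes tested it was 0.02. These directions hold for the values as deposited and after quantile or median scaling. They do not all hold relative to the luminal keratins Krt8 and Krt18, which rose by more than most of the 34. Against the mean of these keratins 20 of the 24 rises, and that of Prom2, turned negative. These keratins rose by unlike amounts, and this count depends on the use of their mean. Of the 34, 17 were then called lower, against 97.2% of all genes, and 15 of the 27 rises were called in neither direction. Because whole tissue was measured, a larger share of epithelial cells and more RNA per epithelial cell cannot be told apart.

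In 22 of the 34 genes, 20 of them among the 31, all 3 progesterone arrays of 76 h lay above all other 21 arrays of the series, a pattern that 8.9% of all genes tested showed. At 4 h and at 16 h none of the 34 passed the test, against 0.186% and 0.308% of all genes, and at 28 h 1 did, Prom2, against 2.53%. With arrays weighted by their quality in the fit the counts were 6, 17 and 5, when 22.4%, 59.4% and 13.1% of all genes were called. The median difference over the 34 genes was 0.02, 0.11 and 0.13 at these times, against -0.01, -0.07 and 0.0033 over all genes. With no adjustment, 3 of the 34 at 4 h, 7 at 16 h and 7 at 28 h were higher at p under 0.05 by limma. At these times 1, 3 and 2 were lower. In either direction, 12.6%, 17.7% and 12.4% of all genes were below that p. The higher ones of the 34 include Prom2 at all 3 times, S100a14 at 16 and 28 h, and Esrp2 at 4 and 16 h. These genes needed high progesterone arrays to be tested.

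**Figure D1:**
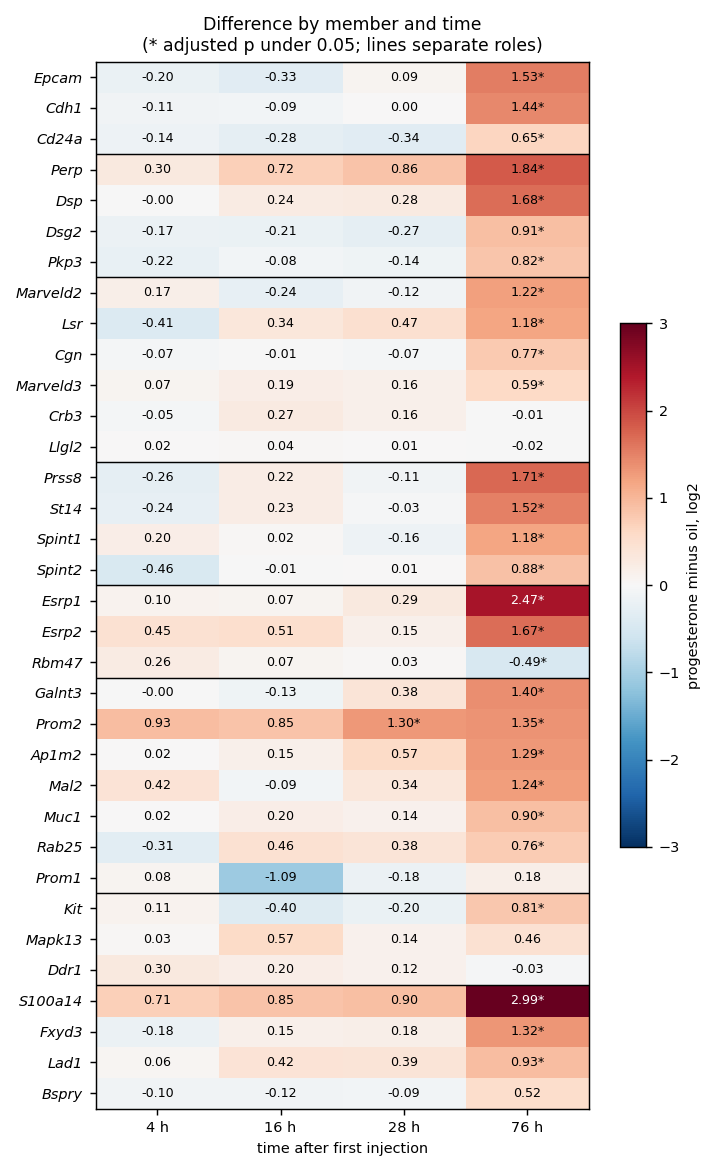
Difference between progesterone and oil, as log2 values, for the 34 genes (vertical axis, grouped by role) at 4, 16, 28 and 76 h after the first injection (horizontal axis), with asterisks at an adjusted p under 0.05. The column for 76 h carries 28 asterisks, 27 of them on rises and 1 on the fall of Rbm47, while the 3 earlier columns carry 1, on Prom2 at 28 h. Relative to the mean of Krt8 and Krt18, which is not drawn, 21 of the 27 rises would be negative.

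The start sites of 21 of the 34 genes were in the RefSeq promoter table (GRCm38.p6), with 30 promoters among them, and the 250 bases before each start were searched on both strands for 6 motifs. CAGGTG, the E-box to which the ZEB and SNAI repressors of epithelial genes bind, was in 12 of the 30 promoters (40%) and 11 genes, against 17.2% of 32851 promoters of all genes. AACCNGTT, the letters of the Grainyhead-like (GRHL) factors that act in epithelia, was in 5 (16.7%) against 1.79%, in Cgn, Muc1, Prom1 and Rab25. GCCNNNGGC, for AP-2 factors, was in 11 (36.7%) against 13.7%. The paired half-sites of steroid receptors were in 1 (3.33%), that of Epcam, against 0.387%. TTCNNNGAA, for STAT factors, was in 1 against 7.02%, and CCGGAA, for ETS factors, was in 4 (13.3%) against 12%. The 30 promoters also had a higher share of G and C, a median of 60.2% against 52.4%, several of them overlap, and the shares were not tested. A match describes letters in the window and is not a bound site. The 4 promoters below are shown because Epcam holds the steroid receptor letters beside the E-box, Ap1m2 holds the E-box 4 times, as does Lsr, Rab25 holds both the E-box and the GRHL letters, and Crb3 holds the E-box 3 times although its level did not pass the test. Each is written 5′ to 3′ on the strand of the gene and ends at the base before the start. Capitals mark the E-box on either strand, the GRHL letters and the steroid receptor letters; other motifs are not marked. Their positions are chr17:87635729-87635978 on the plus strand for Epcam, chr9:21312334-21312583 on the minus strand for Ap1m2, chr3:88548280-88548529 on the minus strand for Rab25, and chr17:57061951-57062200 on the plus strand for Crb3.
Epcam: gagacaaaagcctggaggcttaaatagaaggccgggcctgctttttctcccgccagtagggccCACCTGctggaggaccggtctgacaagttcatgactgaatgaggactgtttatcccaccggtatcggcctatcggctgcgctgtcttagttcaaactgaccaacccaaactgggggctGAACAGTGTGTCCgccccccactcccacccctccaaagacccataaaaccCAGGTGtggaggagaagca
Ap1m2: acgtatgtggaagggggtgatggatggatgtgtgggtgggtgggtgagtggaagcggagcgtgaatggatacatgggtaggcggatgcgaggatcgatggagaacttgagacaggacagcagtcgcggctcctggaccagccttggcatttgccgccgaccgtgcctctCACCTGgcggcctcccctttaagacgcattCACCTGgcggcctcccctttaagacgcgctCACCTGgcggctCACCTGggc
Rab25: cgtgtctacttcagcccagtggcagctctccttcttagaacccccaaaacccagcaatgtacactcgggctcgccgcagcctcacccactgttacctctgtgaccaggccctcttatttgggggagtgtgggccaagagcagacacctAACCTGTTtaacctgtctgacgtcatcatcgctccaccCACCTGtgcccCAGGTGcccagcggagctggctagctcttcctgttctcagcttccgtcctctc
Crb3: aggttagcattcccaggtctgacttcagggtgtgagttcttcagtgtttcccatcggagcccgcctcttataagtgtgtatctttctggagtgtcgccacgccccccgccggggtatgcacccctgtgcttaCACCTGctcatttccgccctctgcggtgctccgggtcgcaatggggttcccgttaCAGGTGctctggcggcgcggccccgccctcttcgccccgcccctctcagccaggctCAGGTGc
In Ap1m2 the 4 E-boxes lay between positions -81 and -4, counted back from the start, and in Epcam the steroid receptor letters lay from -69 to -57.

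All 3 surface adhesion genes rose at 76 h. Epcam, whose promoter is shown above, encodes the epithelial cell adhesion molecule. Its intensities were 749, 536 and 682 on the oil arrays and 2172, 1763 and 1728 on the progesterone arrays of 76 h. The groups lay far apart, and the highest value of any other array in the series was 954. The difference was 1.53 ± 0.19 (SE, n = 3 arrays a group) on the log2 scale, 2.89-fold, with an adjusted p of 3.92e-06. Cdh1, which encodes E-cadherin, read 650.1, 541 and 592 in oil and 1798, 1543 and 1490.4 in progesterone. The 3 progesterone arrays again stood above all other arrays, and the rise over oil was 1.44 ± 0.14 (adjusted p = 1.25e-07). Cd24a, a small glycosylated surface protein of luminal cells that B lymphocytes also carry, had an intensity of 2576 ± 76.4 (SD) in oil and 4042 ± 35.2 in progesterone. The groups were apart, and the rise was 0.65 ± 0.10 (adjusted p = 6.29e-05). At the earlier times none of the 3 passed the test, although Cd24a at 28 h had all progesterone arrays, 2603, 2828 and 2741, below all oil arrays, 3227, 3390.3 and 3716 (difference -0.34 ± 0.10, adjusted p = 0.0887). Against oil arrays of the other 3 times the Cd24a difference at 28 h was -0.07 (limma, adjusted p = 0.727).

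**Figure D2:**
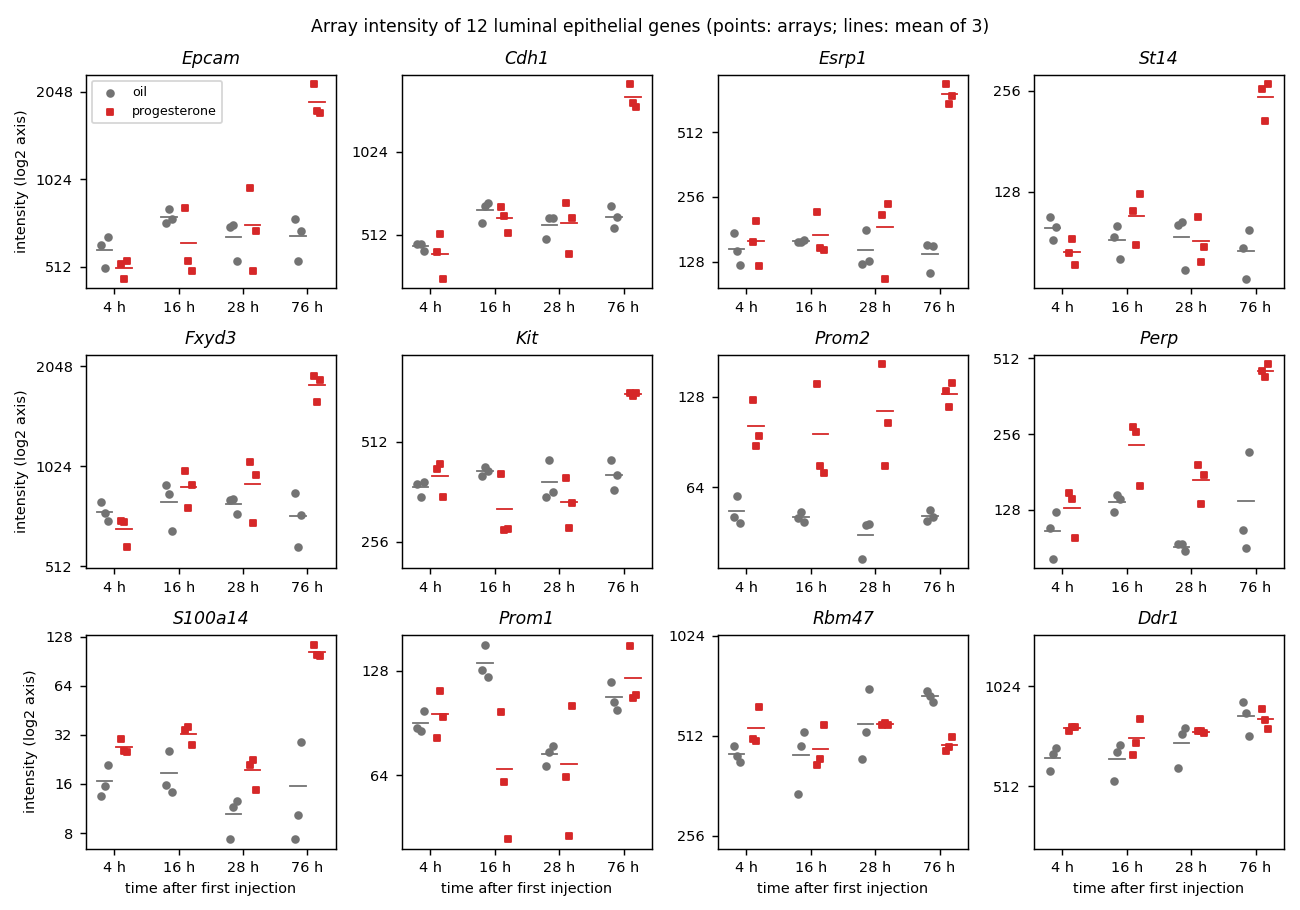
Intensity of 12 of the genes (vertical axes, log2 scale) at each time after the first injection (horizontal axes), with a point for each array and lines at the mean of 3, oil and progesterone apart. Epcam, Cdh1, Esrp1, St14, Fxyd3 and Kit have their 3 progesterone arrays of 76 h above all other arrays, Prom2 and S100a14 have progesterone above oil at all 4 times, Prom1 is lower at 16 h, and Ddr1 overlaps at 76 h; relative to Krt8 and Krt18, which is not drawn, Kit was called lower at 76 h, and Epcam, Cdh1, St14, Fxyd3 and Prom2 would have negative differences that were not called.

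The 4 desmosome genes rose at 76 h as well. Dsp encodes desmoplakin, the plaque protein that binds keratin filaments. It read 327, 236 and 533 in oil and 1156, 1027 and 1131 in progesterone at 76 h, a difference of 1.68 ± 0.25 (adjusted p = 3.49e-05). The third oil array stood well above the other two but far below the progesterone arrays. Perp, a membrane protein needed for desmosome assembly in mouse epithelia, read 106, 90.4 and 218 in oil and 458, 432 and 485 in progesterone, and rose by 1.84 ± 0.25 (adjusted p = 9.7e-06). The same oil array was the high one, and the groups did not overlap. That array, oil replicate 3, also had the highest score of the 4 tested skin keratinocyte genes in its group, 0.97 against -0.10 and -0.53, as the mean log2 deviation from their mean over 24 arrays, and the part of skin RNA in these values was not tested. Perp also had all progesterone arrays above all oil arrays at 16 h, 137 ± 10.8 against 232 ± 62.7, and at 28 h, 91.3 ± 3.23 against 168 ± 29.2. Neither difference passed the test (adjusted p = 0.181 and 0.0697). Against oil arrays of the other 3 times they were 1.08 at 16 h and 0.44 at 28 h (limma, adjusted p = 0.00432 and 0.356). Dsg2, a desmosomal cadherin, went from 455 ± 17.6 to 854 ± 21.9 at 76 h, a rise of 0.91 ± 0.12 (adjusted p = 6.58e-06). Before that it had lain below oil without overlap at 16 h (-0.21 ± 0.12, adjusted p = 0.348) and 28 h (-0.27 ± 0.12, adjusted p = 0.335). The oil mean of Dsg2 was highest at 28 h, 574 against 427, 475 and 455 at 4, 16 and 76 h. Against oil arrays of the other 3 times its difference was -0.22 at 16 h and 0.08 at 28 h (limma, adjusted p = 0.18 and 0.726). Pkp3, plakophilin 3, an armadillo-repeat plaque protein, went from 155 ± 15.3 to 274 ± 18.9 at 76 h (0.82 ± 0.14, adjusted p = 0.00012).

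Of the 6 tight junction and polarity genes, 4 rose at 76 h and 2 did not pass the test. Marveld2 encodes tricellulin, which seals the corners where cells meet. It went from 68.9 ± 1.91 to 161 ± 17.0, a rise of 1.22 ± 0.20 (adjusted p = 9.87e-05). Lsr, or angulin-1, which recruits tricellulin to those corners, went from 94.4 ± 16.9 to 213 ± 24.3 and rose by 1.18 ± 0.21 (adjusted p = 0.000219). In both partners the oil and progesterone arrays did not overlap. Cgn, cingulin, which links tight junctions to actomyosin, rose by 0.77 ± 0.18 (adjusted p = 0.00394). Marveld3, a relative of occludin and tricellulin, rose by 0.59 ± 0.16 (adjusted p = 0.00888), the smallest called rise of the 34, and lost its call without oil replicate 1 of 76 h (adjusted p = 0.0816) and when oil arrays of the other 3 times served as controls (adjusted p = 0.167). The 2 genes that did not pass are polarity determinants. Crb3, the apical determinant Crumbs 3, read 156, 169 and 124 in oil and 166, 159 and 122 in progesterone, values that overlap fully, with a difference of -0.01 ± 0.21 and a 95% interval from -0.44 to 0.43. Llgl2, a basolateral determinant related to fly lethal giant larvae, differed by -0.02 ± 0.14, with an interval from -0.30 to 0.26. A rise like the median of the called ones lies outside both intervals.

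Of the 4 genes of the membrane protease system, St14 and both inhibitors rose at 76 h, and Prss8, called higher too, was measured above the array median on those progesterone arrays alone. St14 encodes matriptase, a serine protease anchored in the membrane, and Prss8 encodes prostasin, a partner with which it forms an activation cascade in epithelia. St14 read 87.1, 70.7 and 98.9 in oil and 259, 209 and 267 in progesterone, a rise of 1.52 ± 0.17 (adjusted p = 8.78e-07). No other array of the series reached the lowest of those progesterone values. Prss8 read 28.5, 23.3 and 37.8 in oil and 114, 73.1 and 107 in progesterone, at least 1.49-fold higher (adjusted p = 0.00012). The bound sets the progesterone mean against the medians of the oil arrays, since those 3 values were the only ones of Prss8 above the median of their array. Spint1 and Spint2 encode HAI-1 and HAI-2, the Kunitz inhibitors of these proteases. Spint1 went from 99.0 ± 23.5 to 221 ± 24.8 (1.18 ± 0.19, adjusted p = 6.3e-05). Spint2 went from 1201 ± 119.5 to 2201 ± 134 (0.88 ± 0.17, adjusted p = 0.000546). Spint2 also had the lowest fitted value of the 34 at 4 h, -0.46 ± 0.17, with overlapping arrays and an adjusted p of 0.235.

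The RNA-binding genes split. Esrp1 and Esrp2 encode the epithelial splicing regulatory proteins, which set the epithelial pattern of alternative exons. Esrp1 read 153, 114 and 151 in oil and 855, 695 and 754 in progesterone at 76 h. The highest value of any other array was 237, and the difference was 2.47 ± 0.24, 5.54-fold, with an adjusted p of 8.28e-08. Esrp2 went from 52.1 ± 13.9 to 163 ± 16.4, a rise of 1.67 ± 0.20 (adjusted p = 2.12e-06). It was above the array median on 1 oil array alone, so the size of this rise is against oil levels mostly below that median. No bound was taken for it. At 4 h its progesterone arrays read 68.6, 90.0 and 63.4 against 59.4, 57.1 and 45.7 in oil, and at 16 h they read 67.8, 75.0 and 65.3 against 52.3, 48.1 and 46.2. The groups were apart at both times, but the differences, 0.45 ± 0.20 and 0.51 ± 0.20, did not pass the test (adjusted p = 0.353 and 0.221). Rbm47, an RNA-binding protein with roles in editing and splicing, was the only called gene of the 34 that fell at 76 h. It read 698, 674 and 648 in oil and 461, 472 and 509 in progesterone, a difference of -0.49 ± 0.15 (adjusted p = 0.0289). Its oil level was itself higher at 76 h than before, with oil means of 450, 448, 556 and 673 at the 4 times, and measured from oil arrays of the other 3 times the difference was 0.0118 (adjusted p = 0.955). Its call was also lost without any 1 of the oil arrays of 76 h or without progesterone replicate 1 or 2 (adjusted p from 0.0527 to 0.103), and its other probe set that passed the filter differed by -0.19 (adjusted p over all probe sets = 0.715).

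Of the 7 genes of the apical membrane and its traffic, 6 rose at 76 h. Prom2 and Prom1 encode prominins, pentaspan proteins of membrane protrusions. Prom2 was the only gene of the 34 called before 76 h: at 28 h it read 37.1, 48.2 and 48.4 in oil and 164, 75.3 and 105 in progesterone, at least 1.67-fold higher by the same bound (adjusted p = 0.00276). The 3 progesterone arrays spread widely but each lay above every oil array. At 4 h they read 125, 87.6 and 94.7 against 50.9, 60.1 and 48.7 (adjusted p = 0.102). At 16 h they read 142, 75.3 and 71.7 against 50.7, 52.9 and 49.2 (adjusted p = 0.151). The groups did not overlap at these times either, although the differences did not pass the test. At 76 h it read 134, 118 and 142 against 49.5, 53.9 and 51.1, at least 2.02-fold higher (adjusted p = 0.000317). No oil array had Prom2 above the array median and all 12 progesterone arrays did, the F-test of a dependence on time did not pass (adjusted p = 0.582), and the 28 h call was lost when the 6 arrays of that time were fitted alone (adjusted p = 0.0677).

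Prom1, the CD133 antigen of luminal cells, took another course. At 16 h it read 129, 153 and 123 in oil and 97.5, 61.0 and 41.9 in progesterone, all lower, with a difference of -1.09 ± 0.26 (adjusted p = 0.0751). Against oil arrays of the other 3 times the 16 h difference was -0.50 (limma, adjusted p = 0.163). At 76 h the groups overlapped and the difference was 0.18 ± 0.26, with an interval from -0.36 to 0.71. Muc1, a mucin of the apical surface, read 113, 70.0 and 71.9 in oil and 173, 121 and 178 in progesterone at 76 h and rose by 0.90 ± 0.26 (adjusted p = 0.0167). Its arrays came close to touching, and the call was lost without oil replicate 2 or 3 or without progesterone replicate 1 or 3 of 76 h (adjusted p from 0.0692 to 0.0846).

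The traffic genes Rab25, Ap1m2 and Mal2 act in turn in apical recycling, in basolateral sorting and in transcytosis. Ap1m2, the epithelial subunit of the AP-1 adaptor, whose promoter is shown above, read 119, 98.2 and 137 in oil and 298, 270.5 and 290.1 in progesterone and rose by 1.29 ± 0.16 (adjusted p = 3.39e-06). At 28 h its groups were apart, 87.5, 88.8 and 99.6 against 164, 103 and 149.5, but the difference did not pass (adjusted p = 0.0622). The oil mean of Ap1m2 was lowest at that time, 92.0 against 119, 137 and 118 at 4, 16 and 76 h. Against oil arrays of the other 3 times its 28 h difference was 0.14 (limma, adjusted p = 0.652). Rab25, a small GTPase of recycling endosomes, went from 178 ± 9.24 to 301 ± 29.4 at 76 h (0.76 ± 0.15, adjusted p = 0.000895). It had lain below oil without overlap at 4 h (-0.31 ± 0.15, adjusted p = 0.408) and above it at 16 h (0.46 ± 0.15, adjusted p = 0.168). Against oil arrays of the other 3 times these differences were -0.05 and 0.14 (limma, adjusted p = 0.853 and 0.526). Mal2 went from 97.2 ± 21.7 to 226 ± 8.73 (1.24 ± 0.27, adjusted p = 0.0019). Galnt3, a Golgi enzyme that starts mucin-type O-glycans, rose by 1.40 ± 0.27 (adjusted p = 0.000539), from 81.2 ± 5.9 to 215 ± 20.2.

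Among the 3 receptor and kinase genes, Kit rose at 76 h. Kit encodes the receptor of stem cell factor, known from luminal progenitors in the mammary gland and from mast cells elsewhere. It read 451, 365 and 408 in oil and 719, 705 and 720.4 in progesterone, a rise of 0.81 ± 0.14 (adjusted p = 0.000231). The progesterone arrays were almost equal and stood above all others. Of 4 mast cell genes tested, none was called at 76 h, and all 4 were called higher at 28 h, when Kit differed by -0.20 ± 0.14 (adjusted p = 0.68). At 28 h it was the oil arrays that stood apart: the summed intensity of 7 mast cell genes was 858 to 1150.3 on them, against 1589 to 2313 on the other oil arrays and 1418 to 1964 on the progesterone arrays of 28 h. Mapk13, a p38 kinase of epithelia, went from 134 ± 30.2 to 183 ± 37.1 without overlap, but the difference of 0.46 ± 0.24 did not pass (adjusted p = 0.198). Ddr1, a collagen receptor with kinase activity, gave different answers by probe set. The probe set read for it, with the highest mean, gave 918, 852 and 723 in oil and 872, 810.4 and 758 in progesterone, which overlap (difference -0.03 ± 0.12, adjusted p = 0.917). Of its 5 other probe sets that passed the filter, 4 were called higher, by 0.86, 0.87, 0.86 and 1.01 (adjusted p over all probe sets from 6.3e-06 to 0.00242), and 1 was not, at 0.12. The mean of its probe sets rose by 0.62 (adjusted p = 5.8e-06), so that the call on Ddr1 depends on the probe set.

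The other genes with several probe sets mostly repeated the call of the probe set read. Over all 34 genes, 67 probe sets carried the symbol of a single one of them, 17 genes had more than 1, and 19 of the 33 probe sets not read passed the filter. Of these 19, 12 were called higher at 76 h by the limma fit over all probe sets. The other Dsp probe sets rose by 1.66 and 1.06, those of Cd24a by 0.60 and 0.52, and that of Kit by 0.72. Among called genes that rose, the exceptions were these: that of Epcam differed by 0.32 (adjusted p = 0.280), that of Pkp3 by 0.41 (adjusted p = 0.251), and 1 of the 3 of Dsg2 by 0.23.

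**Figure D3:**
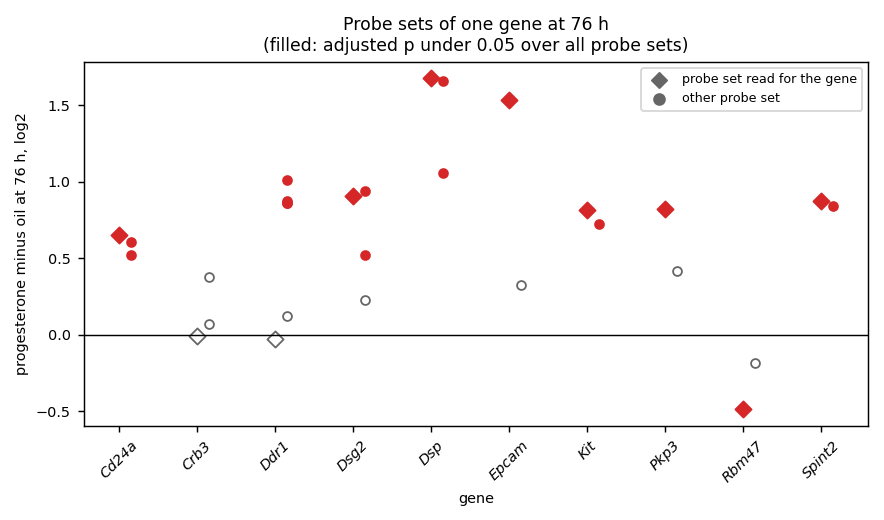
Progesterone minus oil at 76 h, as log2 values (vertical axis), for the 10 genes with more than 1 probe set past the filter (horizontal axis), with diamonds for the probe set read, circles for the others, and filled symbols at an adjusted p under 0.05 over all probe sets. Ddr1 stands out, with the probe set read at -0.03 and 4 others between 0.86 and 1.01, and relative to Krt8 and Krt18, which is not drawn, rises under 1.58 would be negative.

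The 4 remaining genes have other roles at the membrane or in the cytoplasm. S100a14, a calcium-binding S100 protein of epithelia, was measured above the array median on the progesterone arrays of 76 h alone. It read 7.38, 10.3 and 29.0 in oil, the first of them at the floor set for low values, and 114, 98.4 and 97.7 in progesterone at 76 h. It was at least 1.60-fold higher, by the bound against the medians of the oil arrays (adjusted p = 6.79e-06). At 4, 16 and 28 h its progesterone arrays were also all above the oil arrays, but all were below their array's median and the differences did not pass the test (adjusted p = 0.472, 0.267 and 0.324). S100a14 and Prom2 were the 2 of the 34 genes with progesterone above oil on every array at all 4 times, which held for 0.227% of all genes; neither was above the median on any oil array. Fxyd3, a regulator of the sodium pump, read 851, 587 and 732 in oil and 1909.6, 1605 and 1867 in progesterone at 76 h and rose by 1.32 ± 0.15 (adjusted p = 9.28e-07). Its groups were far apart, and the highest value of any other array was 1057. Lad1, ladinin, an anchoring protein of the basement membrane zone, went from 156 ± 29.3 to 295 ± 44.2 (0.93 ± 0.15, adjusted p = 9.92e-05). Bspry, a protein with B-box and SPRY domains, read 75.1, 94.99 and 86.9 in oil and 131, 115 and 121 in progesterone; the groups did not overlap, and the difference of 0.52 ± 0.21 missed the threshold (adjusted p = 0.101).

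**Figure D4:**
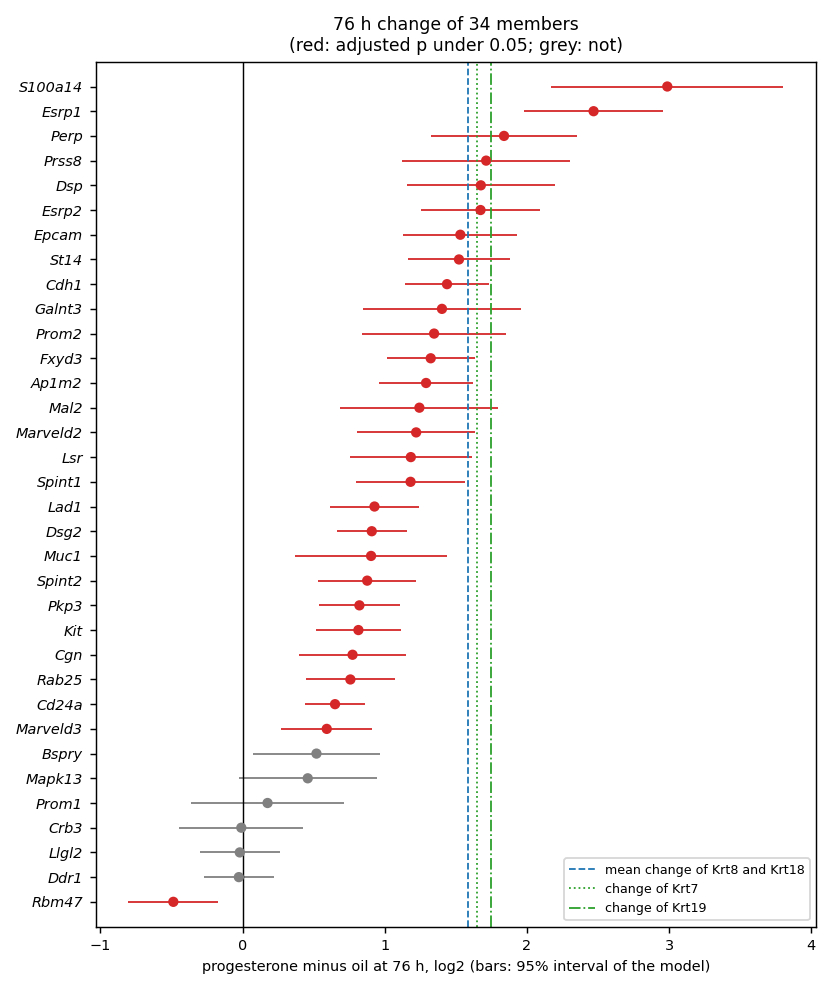
Progesterone minus oil at 76 h, as log2 values with 95% intervals (horizontal axis), for the 34 genes in order (vertical axis), red where the adjusted p was under 0.05, with lines at 0 and at the changes of the luminal keratins. Rbm47 is lowest at -0.49, Esrp1 at 2.47 lies right of the line for the mean of Krt8 and Krt18 at 1.58 with its whole interval, and 21 of the 27 called rises lie left of it, that is, negative relative to these keratins; the fitted values of S100a14, Prss8 and Prom2 are against oil levels below the array median and are not measured folds.

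Some of the 34 genes were apart from oil before 76 h without passing the test. At 4 h, 5 had all progesterone arrays above all oil arrays, against 6.12% of all genes, and 2 had them below, against 12.8%. The 5 were Esrp2, Rbm47, Prom2, Ddr1 and S100a14, and the 2 were Pkp3 and Rab25. At 16 h the counts were 7 (Perp, Esrp2, Prom2, Rab25, Mapk13, Lad1 and S100a14), against 5.37%, and 3 (Cd24a, Dsg2 and Prom1), against 11.7%. At 28 h they were 5 (Perp, Prom2, Ap1m2, Lad1 and S100a14), against 6.79%, and 2 (Cd24a and Dsg2), against 5.24%. At 76 h they were 29, against 25.8%, and 1, against 18.9%. Prom2 and S100a14 are in the higher counts at all 4 times, and Prss8 in that of 76 h. These genes and Esrp2 had to be high on progesterone arrays to be tested, which favoured a place there in advance. The counts at 4 and 16 h also moved with the choice of controls: with oil arrays of the other 3 times as controls, 5 genes were called at 4 h and 4 at 16 h. At 4 h these were Prom2 and Spint1, higher, against 3.05% of all genes, and Cdh1, Cd24a and Dsg2, lower, against 3.46%. At 16 h they were Perp, Prom2, Ap1m2 and S100a14, all higher, against 2.29%; S100a14 was below the median on all arrays of that time. With 1 array left out, the count reached 3 at 4 h without progesterone replicate 3 of that time, against 3.86% of all genes. At 16 h it was 2 without progesterone replicate 1 of that time, against 14.9%. It was 1 there without progesterone replicate 2 or 3 of 28 h, against 0.389% and 0.34%. At 28 h it was 3 without progesterone replicate 2 of that time, against 3.72%. It was 2 at 28 h without progesterone replicate 3 of 4 h or of 16 h or without oil replicate 3 of 76 h, against 2.98%, 2.56% and 2.38%. The 28 h progesterone arrays differed among themselves: the summed intensity of the 4 luminal keratins ran from 3368 to 6282 on them, against 4353 to 4386 on the oil arrays of 28 h.

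Whether the response differed between times was tested directly. The difference between progesterone and oil depended on time in 22 of the 34 genes (moderated F-test, limma), 20 of them among the 31 above the median on some oil array, against 10% of all genes. Adjusted p ran from 2.39e-05 for Cdh1 to 0.0494 for Lad1. The 76 h difference was larger than the 28 h difference in 17 of the 34, 15 of them among the 31, against 4.52% of all genes, and smaller in 0, against 3.12%, where Rbm47 was the 1 gene smaller at an unadjusted p under 0.05. The largest of these contrasts was that of Esrp1, 2.18 ± 0.33 (adjusted p = 0.000187), and that of Cdh1 was 1.43 ± 0.20 (adjusted p = 8.51e-05). For Perp, 0.98 ± 0.35 (adjusted p = 0.0983), and Ap1m2, 0.72 ± 0.23 (adjusted p = 0.0551), it did not pass. Among the 4 oil groups 3 of the 34 genes differed, against 12.2% of all genes. Cd24a was higher at 16 and 28 h, with oil means of 2698, 3387, 3444 and 2576 in time order (adjusted p = 0.00972), Rbm47 was highest at 76 h (adjusted p = 0.0248), and Ddr1 ran from 619 at 16 h to 831 at 76 h (adjusted p = 0.0448). The count was 5 without progesterone replicate 3 of 28 h, against 14.6% of all genes, and 1 without oil replicate 1 or 2 of 76 h, against 7.38% and 8.28%.

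The luminal keratins give a scale for luminal epithelium, although whole tissue does not show that the 34 transcripts came from the same cells. At 76 h Krt8 rose by 1.90 (adjusted p = 1.46e-08) and Krt18 by 1.27 (3.84e-07), and their mean rose by 1.58, 3.00-fold. The rises of Epcam (1.53), St14 (1.52), Cdh1 (1.44), Galnt3 (1.40), Fxyd3 (1.32) and Ap1m2 (1.29) lie below this mean but above that of Krt18 alone. The number of negative differences on the keratin scale thus depends on the use of the mean, and no fit used 1 keratin alone. With each array centred on the mean log2 value of Krt8 and Krt18, the median of all genes moved to -1.56 at 76 h and that of the 34 genes to -0.53. Relative to these keratins 2 of the 34 were called higher, against 0.445% of all genes. Esrp1 was higher by 0.88 (adjusted p = 0.000145). The other was S100a14, whose size against the keratins is not measured, since its bound over oil is smaller than the keratin rise. Another 15 were not called in either direction, and their intervals do not show that they moved like the keratins. These were Epcam (-0.05), Cdh1 (-0.15), St14 (-0.06), Prss8, Dsp (0.09), Perp (0.25), Esrp2 (0.09), Prom2, Galnt3, Fxyd3, Ap1m2, Mal2, Marveld2, Lsr and Spint1, the last 7 between -0.40 and -0.18. The remaining 17 were called lower than the keratins, as were 97.2% of all genes. They include called rises such as Cd24a (-0.93), Kit (-0.77), Rab25 (-0.83) and Marveld3 (-0.99), as well as Crb3 (-1.59), Llgl2 (-1.60) and Rbm47 (-2.07). Among the 31 genes above the median on some oil array, differences relative to the keratins ran from -2.07 to 0.88.

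Other genes of the same structures were read from lists and described by counts. Of all genes tested, 11.1% were called higher and 6.7% lower at 76 h. All 4 luminal keratins were called higher at 76 h, with a median of 1.70. Of 11 claudins and other tight junction genes 8 were higher and 0 lower (median 1.03), led by Cldn7 (2.07), Cldn8 (1.94), the scaffold gene Tjp3 (1.89) and Cldn3 (1.68). Of 7 further desmosome genes 3 were higher (median 0.51): Pkp1 (1.68), Dsc2 (0.53) and Pkp2 (0.51). Of 7 catenins and other adherens junction genes 3 were higher (median 0.14), by small amounts: Ctnnd1 (0.43), Ctnna1 (0.27) and Vcl (0.21). Of 10 further polarity genes 5 were higher (median 0.31), led by Patj (1.13) and Pard3 (0.60). Of 2 tested genes tied to membrane proteases 1 was higher, the sodium channel subunit Scnn1a (0.48), a known target of prostasin. That call was lost after quantile and after median scaling. The protease Tmprss2 was lower at 28 h (-1.60, adjusted p = 0.000983). Of 10 genes of polarised transport 1 was higher, the apical syntaxin Stx3 (0.50), which is near the share of all genes. Of 12 epithelial transcription factors 10 were higher (median 1.21), led by Ehf (2.66), Tfap2c (2.48), Elf5 (2.36) and Tfap2b (2.19). Tfap2b was also higher at 16 h (0.78, adjusted p = 0.0491) and 28 h (0.83, adjusted p = 0.00589). Of 5 factors known from mesenchymal programmes, which include E-box repressors, 3 were higher, Snai2 (1.22), Twist1 (0.53) and Twist2 (0.46), and Zeb2 was lower (-0.29). After quantile and median scaling the mesenchymal list had 3 and 2 higher, and 1 and 0 lower. The counts called higher were then 4 and 1 for the catenin list, 2 and 2 for the further desmosome genes, 3 and 4 for the polarity genes, and 9 and 9 for the epithelial factors. Those of the keratins, tight junction genes and transport genes did not change. Relative to Krt8 and Krt18, 6 of the 11 claudin and tight junction genes were lower and 1 higher, and 5 of the 12 epithelial factors were lower and 4 higher. None of the 4 luminal keratins, which include the 2 that set the scale, was called. No gene of the other lists of structures or of the mesenchymal list was higher. Of all genes, 97.2% were called lower on that scale.

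Markers of other cell types moved beside the 34 genes at 76 h, when 11.1% of all genes were called higher and 6.7% lower. Of 12 basal epithelial genes 10 were called higher and 0 lower (median 0.95), with summed intensities of 8231 to 9359.95 in oil and 13819.6 to 15039 in progesterone; Krt15 (3.26), the basal regulator Trp63 (2.65), Krt17 (2.07) and Krt5 (1.94) led. All 11 proliferation genes were higher (median 1.50), with sums of 1821 to 2394 in oil and 4918 to 7438 in progesterone, led by Ccnb2 (2.05), Cdk1 (2.00), Bub1 (1.90) and Birc5 (1.57). Of 6 luminal progenitor genes 4 were higher, Elf5, Wfdc18 (2.34), Csn3 (0.95) and Cd14 (0.47), and the list's sum ran from 3885 to 5079.65 in oil and from 10025 to 12602 in progesterone. Of 5 hormone-sensing luminal genes 2 were higher, Foxa1 (0.98) and Cited1 (0.78), while Pgr was not called at 76 h. Relative to Krt8 and Krt18, 8 of the 12 basal genes were lower and 2 higher, and 1 of the 11 proliferation genes was lower and 0 higher. Of the 6 luminal progenitor genes 4 were lower and 2 higher, and all 5 hormone-sensing genes were lower. Of all genes, 97.2% were called lower on that scale. The luminal keratin sums were 3530 to 4292 in oil and 10837 to 12050.5 in progesterone, which do not overlap.

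Of 9 fibroblast genes 5 were higher at 76 h, led by Lum (0.59) and Pdgfrb (0.54), when 11.1% of all genes were called higher and 6.7% lower. Of 9 lymphocyte genes 5 were lower, led by Cd79b (-0.59) and Cd8a (-0.59), with sums of 9534 to 10854.5 in oil and 6790 to 7732 in progesterone, while Cd24a, which B cells share, rose. Of 8 endothelial genes 4 were lower, led by Cdh5 (-0.47). Of 8 fat cell genes 2 were lower, Retn (-0.28) and Lpl (-0.17), and their sums of 69358 to 70262 in oil and 63846 to 68282 in progesterone lay close together. None of 4 skin keratinocyte genes, 9 macrophage genes, 4 mast cell genes or 13 skeletal muscle genes was called at 76 h by limma, nor had an unadjusted p under 0.05. Relative to Krt8 and Krt18 all tested genes of these lists were lower, the fibroblast genes included, as were 97.2% of all genes. The muscle sums ran from 9919.68 to 38486 in oil and from 13793 to 25189 in progesterone, so that muscle RNA varied between arrays of a group. The ratio of 3′ to 5′ control probes for actin was 0.308 to 0.374 in oil and 0.370 to 0.454 in progesterone on the log2 scale at 76 h, and that for Gapdh was -0.138 to -0.0887 in oil and -0.170 to -0.112 in progesterone, both a partial overlap and in opposite directions. At 4 h the actin ratio was 0.408 to 0.437 in oil and 0.506 to 0.590 in progesterone, which do not overlap. That for Gapdh was then -0.174 to 0.0316 in oil and 0.000932 to 0.343 in progesterone. The part of these cell types and of RNA quality in the rises at 76 h, or in the differences at 4 h, was not tested.

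**Figure D5:**
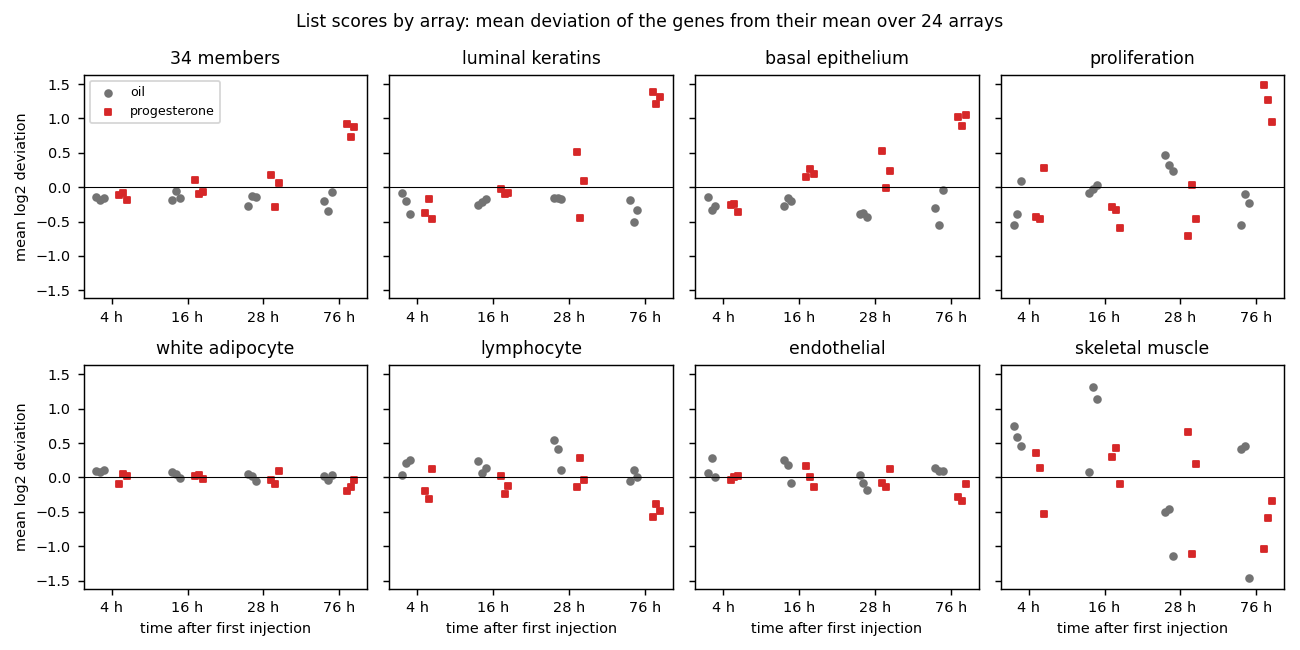
Score of the 34 genes and of 7 lists on each array, as the mean log2 deviation of a list's genes from their mean over 24 arrays (vertical axes), by time after the first injection (horizontal axes), with oil and progesterone apart. The score of the 34 genes is between 0.73 and 0.92 on the 3 progesterone arrays of 76 h and between -0.35 and 0.18 on all others; relative to Krt8 and Krt18, which is not drawn, the median of the 34 genes at 76 h would be -0.53.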

How the data were processed

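Trizol-extracted RNA of whole mammary tissue was made into biotin-labelled cRNA in 1 cycle and measured on 24 arrays, per the labels' protocols. The authors deposited linear intensity values for 45101 probe sets; how probes were summarized or arrays normalized is not given in the sources used here, and the labels name no batch. Values under 7.38, the 10th percentile, were raised to that floor before log2 was taken, without further scaling. Probe sets with 1 gene symbol in the 2016 platform annotation were used, the 64 control probe sets were left out, a probe set had to exceed its array's median on 3 arrays, and the probe set of highest mean stood for its gene (12352 genes).

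A linear model with a mean per group was fitted over all 24 arrays (limma 3.58.1 under R 4.3.3, statmod 1.5.0), using an intensity trend in the variance and 16 residual degrees of freedom. The contrasts were progesterone minus oil per time, an F-test over the 4 times, the 76 h minus 28 h difference, and an F-test over the oil groups. For 3 genes with no oil array above the median, a lower bound of the fold was taken against the medians of the oil arrays. Tests are two-sided, with Benjamini-Hochberg adjustment over all genes and calls at an adjusted p under 0.05. SD is given for intensities and SE for log2 differences. Calls were tested on simulated data. Figures and promoters were made with Python 3.11.15, pandas 2.3.3 and matplotlib 3.10.9.

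The genes and lists were chosen with earlier results of these data known. By rule every one of the 34 genes is named; values of single arrays are given for called genes or the 4 largest changes per time, and up to 4 called genes per list. Values of single arrays of other genes were chosen after seeing them. Replicate numbers were not used to pair the arrays in the main model. Deviations from group means of same-numbered arrays correlated at -0.018 to 0.346, over 0.1 in 6 of 12 pairs. As 15 of 24 arrays correlated best with their own number, some structure by number may be present, and a replicate block was fitted as an alternative. Alternatives varied the floor, filter, scaling, probe set, variance model, threshold, controls and arrays.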

Additional observations from a re-analysis of the deposited data

Results flagged for a closer look

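In 22 of the 34 genes the difference between progesterone and oil differed between the 4 times by the moderated F-test (limma, adjusted over all genes), which 10% of all genes did. The adjusted p was 2.39e-05 for Cdh1, 4.9e-05 for Esrp1, 7.77e-05 for Dsg2, 0.000107 for St14, 0.000135 for Cd24a, 0.000151 for Epcam and 0.000178 for Fxyd3. It was 0.00113 for Kit, 0.00161 for Pkp3, 0.00169 for Ap1m2, 0.00331 for Spint2, 0.00334 for Esrp2, 0.00348 for Marveld2 and 0.00464 for Spint1. It was 0.00535 for Prss8, 0.00587 for Lsr, 0.0080 for Dsp, 0.00971 for Rab25, 0.0175 for S100a14, 0.0257 for Perp, 0.0267 for Galnt3 and 0.0494 for Lad1. Prss8 and S100a14 passed the filter on low values through the progesterone arrays of 76 h alone. Esrp2 was above the array median on 1 oil array and also needed progesterone arrays to pass. All 22 were called higher at 76 h and none passed the test at the 3 earlier times. With 3 arrays a group, single arrays that stood apart from their group were not tested.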

How the results depend on the processing

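At 76 h, 26 to 29 of the 34 genes were called under each of the 19 alternatives except the centring on Krt8 and Krt18, which called 19, and 26 to 28 with 1 array left out. The share of all genes called at 76 h ran from 10.3% to 39.1% under these alternatives and was 97.7% with that centring. With 1 array left out it ran from 11.2% to 19.4%. Of the 28 calls, 25 held in all 24 fits that left out 1 array and in each alternative but that centring; Rbm47, Muc1 and Marveld3 are the exceptions. Relative to Krt8 and Krt18 the 76 h differences turned to -0.29 for Ap1m2, -1.06 for Bspry, -0.93 for Cd24a, -0.15 for Cdh1, -0.81 for Cgn, -0.68 for Dsg2, -0.053 for Epcam, -0.26 for Fxyd3, -0.18 for Galnt3, -0.77 for Kit, -0.66 for Lad1, -0.40 for Lsr, -0.34 for Mal2, -1.13 for Mapk13, -0.36 for Marveld2, -0.99 for Marveld3, -0.68 for Muc1, -0.76 for Pkp3, -1.41 for Prom1, -0.24 for Prom2, -0.83 for Rab25, -0.40 for Spint1, -0.71 for Spint2 and -0.062 for St14, since that construction subtracts a keratin rise of 1.58. At 76 h Ddr1 turned to 0.62 as the mean of its probe sets, 0.34 against the oil arrays of other times and 0.25 against all 12 oil arrays, and Rbm47 to 0.012 against the oil arrays of other times. Spint1 at 16 h turned to -0.34 with array weights (adjusted p = 0.0146). At 4 h the count of 0 became 1 with the keratin centring, 6 with array weights, 5 against oil arrays of other times and 3 against all 12, and ran from 0 to 3 with 1 array left out. Of all genes 0.202% were called at 4 h with the keratin centring, 6.51% against oil arrays of other times and 3.69% against all 12. With 1 array left out 0.0972% to 3.86% were. At 16 h the count of 0 became 1 with the keratin centring, 17 with array weights, 1 at an adjusted p under 0.1, 4 against oil arrays of other times and 3 against all 12. It was 1 (Prom1) without the 28 h arrays, an alternative chosen after seeing the data. With 1 array left out it ran from 0 to 2, and it was 2 without progesterone replicate 1 of 16 h. The shares of all genes were 0.235% with the keratin centring, 0.542% at an adjusted p under 0.1, 4.53% against oil arrays of other times and 2.4% against all 12. They were 0.437% without the 28 h arrays and 0.0648% to 14.9% with 1 array left out, highest without progesterone replicate 1 of 16 h. At 28 h the count of 1 became 5 with array weights, 4 at an adjusted p under 0.1, 0 with the 6 arrays alone, 2 against either set of other oil arrays, and 2 with a replicate block, and ran from 1 to 3 with 1 array left out. Of all genes 3.85% were called at an adjusted p under 0.1, 0.615% with the 6 arrays alone and 2.41% with a replicate block. The share was 0.874% against oil arrays of other times, 0.696% against all 12 and 1.13% to 3.72% with 1 array left out. The replicate block changed no other count at a single time, and 15 of 24 arrays correlated best with their own number. The count of genes whose difference depended on time ran from 18 to 25 with 1 array left out, and that of larger 76 h than 28 h differences from 13 to 18. Of all genes, 5.99% to 18.1% depended on time in those fits, and 5.03% to 9.36% had a 76 h difference unlike the 28 h one in either direction. The count of 3 among oil groups became 0 with the keratin centring, 1 as the mean of probe sets, 18 with array weights, 1 and 6 at adjusted p under 0.01 and 0.1, and ran from 1 to 5 with 1 array left out. The shares of all genes were 3.81% with the keratin centring, 13.6% as the mean of probe sets, and 3.97% and 21.1% at those thresholds. With 1 array left out they ran from 7.38% to 15.7%. Apart from the centring, the cause was not tested. With array weights 22.4%, 59.4% and 13.1% of all genes were called at 4, 16 and 28 h, and 67.1% among the oil groups. Prss8, Prom2 and S100a14 lay below the array median on all oil arrays, so that their folds are bounds.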
